A study of Mus musculus with 8 samples.

Results

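The Wnt pathway genes described here are the ligands, receptors, antagonists and core transducers whose symbols appear in the deposited table of normalized counts. They were chosen by a rule on gene symbols, set with earlier results of these data known. The rule took all Wnt, Frizzled (Fzd), secreted Frizzled-related (Sfrp), Dickkopf (Dkk) and R-spondin (Rspo) genes. It also took Lgr4, Lgr5 and Lgr6, and Wls, Porcn, Lrp5, Lrp6, Axin1, Axin2, Lef1, Tcf7, Tcf7l1, Tcf7l2 and Ctnnb1. The table held 55 such genes among 31723. RNA had been sequenced from muscle stem cells sorted by flow cytometry from the hindlimbs of wild-type C57BL/6 mice, freshly isolated, and the libraries were made from amplified cDNA. The young group (3 months of age) and the old group (20 months) had 4 libraries each, and old cells were compared with young cells. The labels list separate samples without saying whether each was 1 animal or a pool, so p-values measure the spread between these samples, which may be technical.

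Wnt proteins are secreted lipid-modified signals. Porcupine attaches the lipid, Wntless carries the protein to the cell surface, and Frizzled receptors with an LRP co-receptor bind it on the receiving cell. In the canonical branch this stops the axin-containing complex from destroying beta-catenin, which then acts with TCF/LEF factors on target genes such as Axin2. In mouse muscle, Wnt signals are known to affect the self-renewal and commitment of stem cells, Wnt7a acting through Fzd7 being a well-studied pair, and excess canonical signal has been linked to fibrosis in aged muscle.

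The libraries held between 19.0 and 34.7 M (megareads) of recovered reads assigned to genes. The marker of these cells, Pax7, had 2441 ± 419 in young and 2749 ± 493 in old (mean normalized count ± SD, n = 4 per age). None of the 12 stem cell markers was listed at 0 in every library. The same held for the markers of the other cell types used below, so it does not tell stem cells from them. A normalized count is a read count divided by a size factor for its library. Of the 55 genes, 37 averaged 10 normalized counts or more across the 8 libraries and were tested. The nearest below that limit was Rspo3 with a mean of 9.26, and the nearest above was Wnt2b with 16.7.

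The regions around the transcription start are printed for 4 genes on which the results turn. Wls was a gene that passed the test, Fzd10 had no read in any old library, and Wnt4 and Wnt11 were the ligands with the highest levels per length. Each window is 300 bases on the plus strand of GRCm38.p6, running from 250 bases before the start to 50 after it, from RefSeq. They lie at chr3:159839400-159839699 (Wls), chr5:128600856-128601155 (Fzd10), chr4:137277385-137277684 (Wnt4) and chr7:98834862-98835161 (Wnt11, the upstream of its 2 starts). Capitals mark the core of the TCF/LEF motif, CTTTGAT or CTTTGAA, searched on both strands.
Wls: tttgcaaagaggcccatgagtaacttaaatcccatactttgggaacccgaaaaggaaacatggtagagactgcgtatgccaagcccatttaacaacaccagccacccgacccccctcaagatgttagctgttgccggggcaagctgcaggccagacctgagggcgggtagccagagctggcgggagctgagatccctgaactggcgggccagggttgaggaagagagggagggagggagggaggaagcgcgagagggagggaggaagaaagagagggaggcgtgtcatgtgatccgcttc
Fzd10: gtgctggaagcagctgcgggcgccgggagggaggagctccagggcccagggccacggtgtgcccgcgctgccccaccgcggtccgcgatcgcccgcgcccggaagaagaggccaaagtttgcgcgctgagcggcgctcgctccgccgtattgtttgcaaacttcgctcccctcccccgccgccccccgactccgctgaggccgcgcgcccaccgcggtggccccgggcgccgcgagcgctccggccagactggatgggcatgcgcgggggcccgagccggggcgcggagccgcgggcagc
Wnt4: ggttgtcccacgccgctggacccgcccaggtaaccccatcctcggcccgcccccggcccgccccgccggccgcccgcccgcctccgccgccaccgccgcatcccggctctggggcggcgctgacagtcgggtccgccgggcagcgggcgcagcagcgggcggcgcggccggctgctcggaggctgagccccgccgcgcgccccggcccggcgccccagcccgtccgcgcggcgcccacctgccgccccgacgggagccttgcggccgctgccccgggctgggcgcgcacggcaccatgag
Wnt11: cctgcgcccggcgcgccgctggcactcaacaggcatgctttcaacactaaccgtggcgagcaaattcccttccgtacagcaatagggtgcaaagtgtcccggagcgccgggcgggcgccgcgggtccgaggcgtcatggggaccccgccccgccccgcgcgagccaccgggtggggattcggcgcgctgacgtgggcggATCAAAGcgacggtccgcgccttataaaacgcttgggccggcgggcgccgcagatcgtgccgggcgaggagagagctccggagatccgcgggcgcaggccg
The single match in these 4 windows is that of Wnt11, as ATCAAAG on the printed strand, beginning at position -51 relative to the start. Among all 32851 RefSeq windows, 8.65% held a match, and of the 29 windows of 23 tested genes it was 2 windows. A match is a description and not a site. The Wls window held 11 CG dinucleotides, Fzd10 45, Wnt4 51 and Wnt11 45. The median was 7 over all windows and 31 over the windows of the tested genes of this set.

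Among the 37 tested genes 2 rose in old cells, Wls and Sfrp4, and 0 fell (limma, Benjamini-Hochberg adjusted p under 0.05). Over all 14822 tested genes 3.34% rose and 1.88% fell, together 5.22%, and the share of the 37 was 5.41%, near that background. At an unadjusted p under 0.05, 17 of the 37 were higher (45.9%, against 12.7% of all genes) and 3 lower (against 8.06%). Of the 37, 27 had a positive log2 fold change (old over young) and 10 a negative one, with a median of 0.49 beside 0.045 over all tested genes. Quantile normalization left 24 positive and 13 negative. By edgeR on the recovered reads 2 were higher and 0 lower, where 2.76% of all tested genes were higher and 2.01% lower (4.77% in all). By DESeq2 6 were higher and 3 lower, where 5.18% of all genes with an adjusted p were higher and 4.06% lower (9.24% in all). All RNA came from sorted bulk cells, so fewer cells of a type and less RNA per cell cannot be told apart in any of these values.

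**Figure D1:**
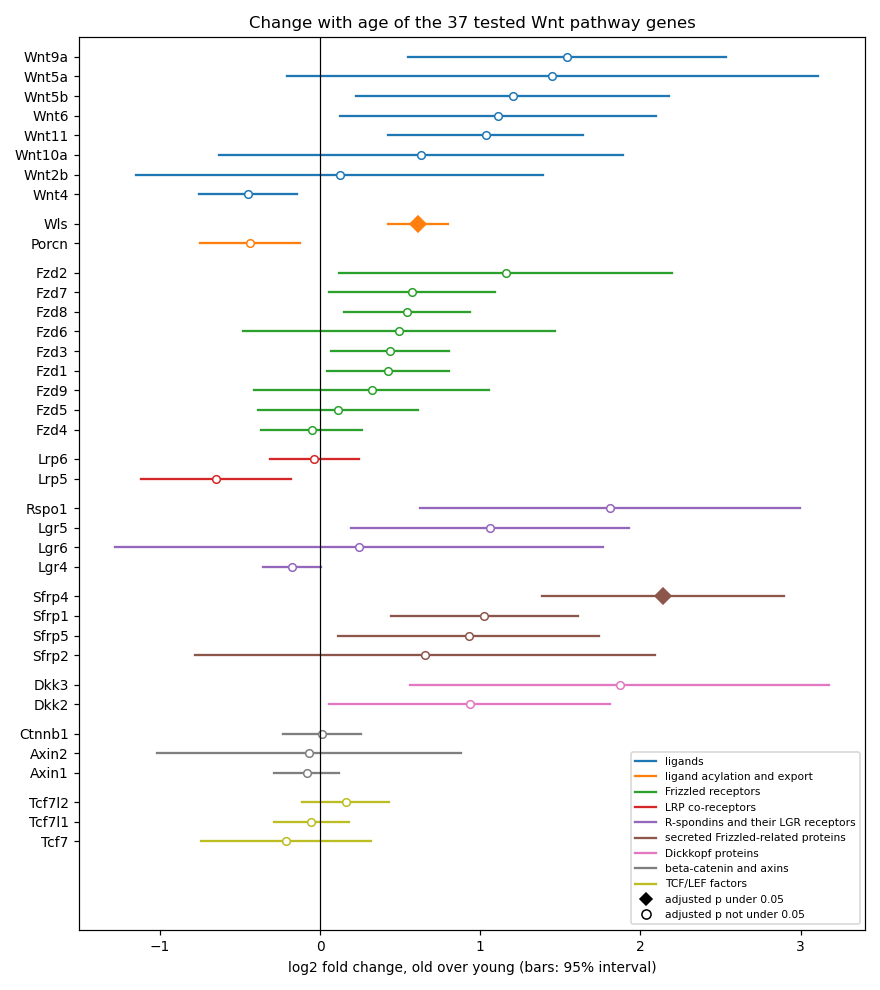
log2 fold changes (old over young, x axis) of the 37 tested genes, one per line and coloured by role, with 95% intervals as bars. Filled diamonds are the 2 genes that passed the test, Wls and Sfrp4, and open circles are the other genes, most of which lie to the right of 0.

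Markers of connective tissue cells differed between the ages in the same libraries. Of 14 markers of fibro-adipogenic progenitors, the matrix-producing cells between muscle fibres, 3 rose and 0 fell. Of the 14, 12 had a positive log2 fold change and 2 a negative one, Col3a1 (-0.59) and Dpt (-0.23). Of 8 tenocyte markers 5 rose and 0 fell. Of the 12 stem cell markers 0 rose and 2 fell, Itga7 and Calcr. Of the tested markers of other cells, 1 of 9 for smooth muscle and pericytes rose, and 0 passed of 10 endothelial, 10 leukocyte, 8 Schwann cell and 10 myofibre markers. The summed level of the first list ran from 92200.3 to 159758 normalized counts in young and from 120250 to 292717 in old libraries, and that of the second from 3334 to 8907 and from 11978 to 110625, with none of these markers at 0 in every library. The largest part of the first sum was Gsn, with means of 54138 in young and 108843 in old libraries. Young library 2 had the highest sums of the young libraries, and old library 3 the lowest of the old ones. With the mean log2 level of both lists as a covariate, 0 of the 37 genes passed, 21 had a positive and 16 a negative fold change, and the median was 0.049. In that model 8 of all tested genes were called higher and 5 lower.

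Wnt4 had the highest level of the ligands at both ages. Per kb of exon, Wnt4 stood at 242 in young and 177 in old normalized counts per kb, which was 70.9 ± 7.31% of the summed level of all 19 Wnt genes in young libraries and 46.4 ± 4.73% in old ones (SD, n = 4). Wnt11 followed with 12.3 ± 3.67% and 22.3 ± 4.20%, and Wnt9a with 5.14 ± 2.55% and 12.5 ± 4.25%.

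Wnt4, a ligand known for roles in kidney and neuromuscular development, had 1231, 907, 845 and 1082 normalized counts in young libraries 1 to 4 and 807, 697, 644 and 813 in old libraries 1 to 4. Every old library lay below every young one, and the log2 fold change was -0.45 ± 0.14 (adjusted p = 0.0937), which did not pass. Here and below, the ± after a log2 fold change is limma's standard error, and that after a count or share is the SD. Wnt4 was called lower by DESeq2. With the marker covariate it was at -0.57 (95% interval -1.08 to -0.062, adjusted p = 0.467).

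Wnt11, a ligand that mostly acts without beta-catenin, had 154, 245, 153 and 137 normalized counts in young libraries 1 to 4 and 368, 422, 201 and 453 in old libraries 1 to 4. Young library 2 lay above old library 3, and the other old libraries lay above all young ones. The log2 fold change was 1.04 ± 0.27 (adjusted p = 0.0582), and with the marker covariate 0.082 (95% interval -0.46 to 0.62). Wnt11 passed in 7 of 22 alternatives, DESeq2 among them. An antisense pseudogene, Gm8398, overlaps 364 bases of its exons in the GENCODE annotation, and since strandedness is not stated their reads may not be separable. The same limit holds for Wnt5a, Wnt7b, Fzd5, Fzd6, Rspo3, Sfrp2, Axin2, Lef1, Tcf7l1 and Ctnnb1, whose exons are also overlapped on the opposite strand.

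Wnt9a had 96.7, 46.5, 72.7 and 21.5 normalized counts in young libraries 1 to 4 and 114, 125, 138 and 271 in old libraries 1 to 4, and its groups did not overlap. The old libraries other than library 4 lay close together, between 114 and 138, and library 4 was at 271 (log2 fold change 1.54 ± 0.45, adjusted p = 0.0786). Wnt9a passed in 1 of 22 alternatives, DESeq2. Wnt5b, which also signals mostly without beta-catenin, had 39.6, 21.8, 35.3 and 9.92 normalized counts in young libraries 1 to 4 and 83.5, 46.6, 40.8 and 60.2 in old libraries 1 to 4. These groups did not overlap either, although old library 3, at 40.8, was close to young library 1, at 39.6 (log2 fold change 1.20 ± 0.44, adjusted p = 0.151).

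The other 4 tested ligands overlapped between the ages. Wnt6 was at 18.3 ± 6.59 in young and 42.5 ± 17.7 in old (log2 fold change 1.11 ± 0.44) and Wnt5a at 23.3 ± 27.4 in young and 49.3 ± 29.5 in old (1.45 ± 0.75). Wnt10a and Wnt2b had log2 fold changes of 0.63 ± 0.57 and 0.12 ± 0.57. Limma called 0 of the 8 tested ligands (4 higher and 1 lower at an unadjusted p under 0.05). By edgeR 0 were called, and by DESeq2 2 higher and 1 lower. Of all genes, 12.7% were higher and 8.06% lower at that unadjusted p, and DESeq2 called 5.18% higher and 4.06% lower. The remaining 11 Wnt genes were below the limit, and each had a mean under 10. Among them Wnt7a was listed at 0 in every library, Wnt3a had 1 recovered read in young libraries and 0 in old, and Wnt8b had 0 and 2. With 93.9 M reads over the old libraries, a count of 0 allows for Wnt7a a level of up to 0.0319 RPM (reads per M reads) in old cells, counting error only.

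**Figure D2:**
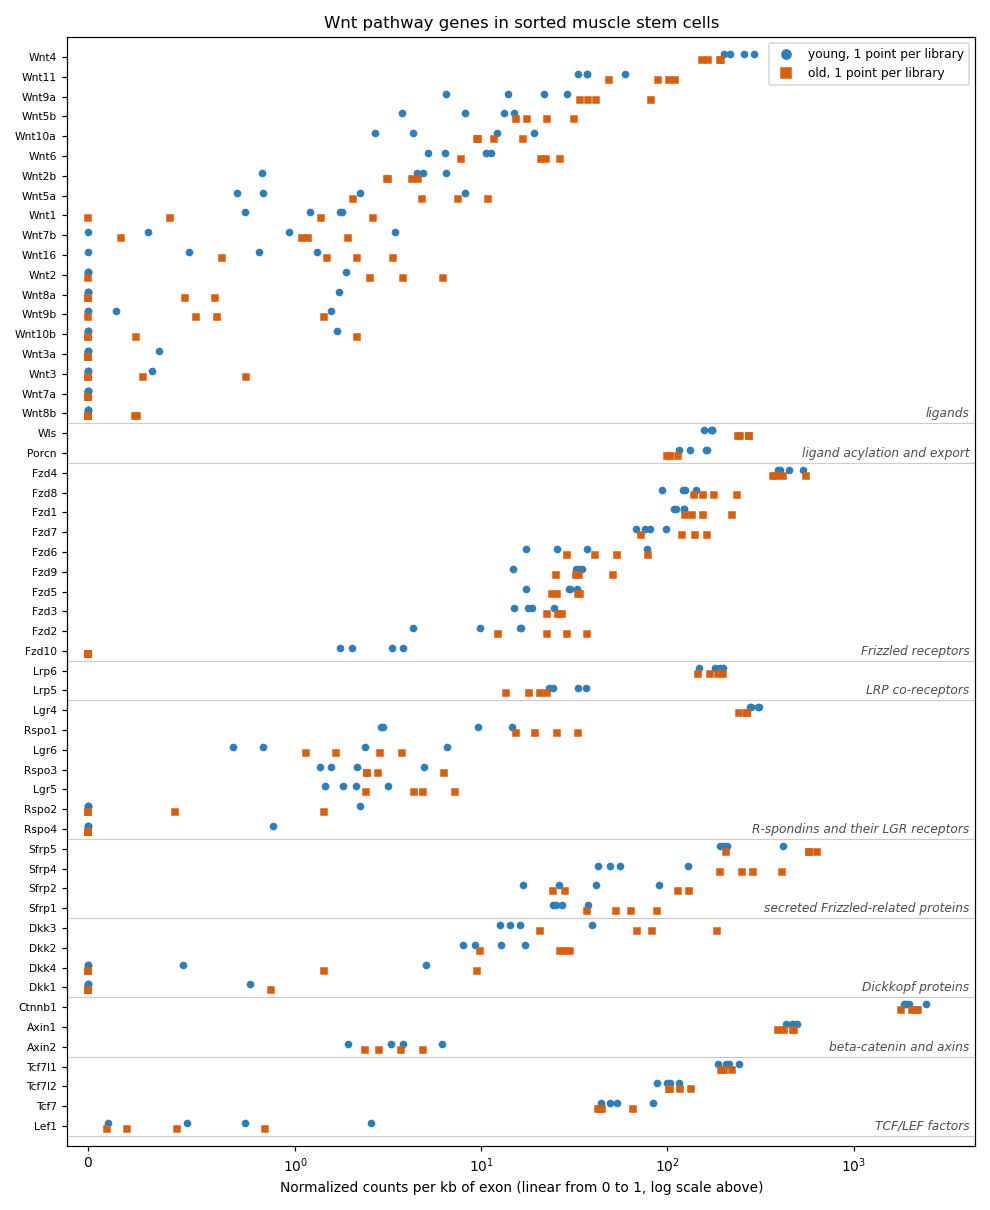
Level of each of the 55 genes in normalized counts per kb of exon (x axis, linear up to 1 and log scale above), grouped by role, with 1 point per library, circles for young and squares for old. Wnt4 leads the ligands, Fzd4 the Frizzled receptors, Lgr4 the R-spondin receptors and Ctnnb1 all 55 genes, while Wnt7a lies at 0.

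Wls and Porcn, which act in the export and preparation of Wnt proteins, had fold changes of opposite sign, and of them Wls alone passed. Wls, which encodes the Wntless carrier, rose from 1375, 1534, 1501 and 1529 normalized counts in young libraries 1 to 4 to 2158, 2406, 2114 and 2402 in old libraries 1 to 4. The groups were far apart compared with their spread, 1485 ± 74.4 in young and 2270.2 ± 156 in old (SD, n = 4). The change was 1.53-fold (log2 fold change 0.61 ± 0.084, limma adjusted p = 0.0046). It kept the call in 21 of 22 alternatives, including each of the 8 runs that left out a library. In the remaining one, the marker covariate, the log2 fold change was 0.50 (95% interval 0.19 to 0.80, adjusted p = 0.297).

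Porcn, the acyltransferase that attaches the lipid, had 491, 397, 348 and 487 normalized counts in young libraries 1 to 4 and 309, 311, 341 and 299 in old libraries 1 to 4. All old libraries lay below all young ones, by a small margin at young library 3 (348) and old library 3 (341). The log2 fold change was -0.44 ± 0.14 (adjusted p = 0.104), and without young library 3 it was called lower (-0.53, adjusted p = 0.0498). Porcn passed in 2 of 22 alternatives, that run and DESeq2. Wls made up 54.2 ± 4.82% of the summed per-kb level of these 2 genes in young and 71.0 ± 2.43% in old libraries (SD, n = 4).

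**Figure D3:**
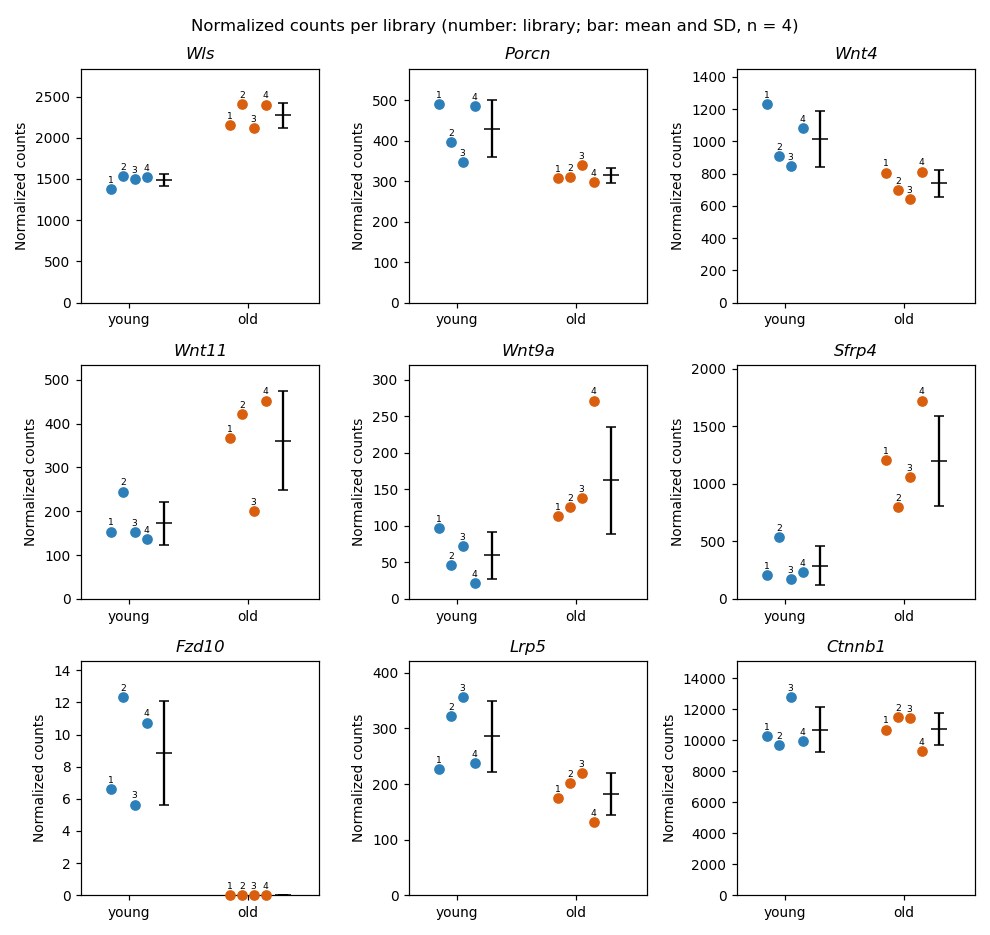
Normalized counts (y axis, linear from 0) of 9 genes in each library, young in blue and old in orange, numbered by library, with the mean and SD of 4 libraries as a bar. Wls, Sfrp4 and Wnt9a are higher in every old library, Wnt4, Porcn, Lrp5 and Fzd10 lower in every old library, and Wnt11 and Ctnnb1 overlap.

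Frizzled receptors were dominated by Fzd4, with 445 in young and 432 in old normalized counts per kb, 49.8 ± 3.23% of the summed Frizzled level in young and 40.9 ± 6.72% in old (SD, n = 4). Fzd4, which also serves as the receptor for norrin, had 2656, 2705, 3585 and 3015 normalized counts in young libraries 1 to 4 and 2494, 2816, 3717 and 2575 in old libraries 1 to 4. The ages overlapped throughout, with a log2 fold change of -0.052 ± 0.14 (95% interval -0.37 to 0.26). It was highest in young library 3 and old library 3, where the sum of 10 endothelial markers was also highest, 71051 and 58270.4 normalized counts against 20085 to 37252 in the other libraries; the part of such cells in its level was not tested. Fzd8, Fzd1 and Fzd7 followed at 121 in young and 177 in old, 116 in young and 159.7 in old and 80.7 in young and 124 in old normalized counts per kb.

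Fzd1 was the single tested Frizzled whose ages did not overlap, with 465, 515, 453 and 518 normalized counts in young libraries 1 to 4 and 652, 935, 571 and 524 in old libraries 1 to 4. The lowest old library, at 524, was just above the highest young one, at 518, and the gene did not pass (log2 fold change 0.42 ± 0.17, adjusted p = 0.189). Fzd8 had 743, 725, 854 and 562 normalized counts in young libraries 1 to 4 and 835, 1414, 927 and 1059 in old libraries 1 to 4, with old library 1 below young library 3 (log2 fold change 0.54 ± 0.18, adjusted p = 0.111).

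Fzd7, the receptor studied with Wnt7a in mouse muscle stem cells, had 343, 444, 366 and 309 normalized counts in young libraries 1 to 4 and 541, 743, 328 and 641 in old libraries 1 to 4. Old libraries 1, 2 and 4 were above all young ones, and old library 3 was below young libraries 1, 2 and 3. The log2 fold change was 0.57 ± 0.23 (adjusted p = 0.194); without old library 3 it was 0.81 and passed (adjusted p = 0.0256), and with the marker covariate it was -0.22.

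Fzd2, Fzd3, Fzd5, Fzd6 and Fzd9 had log2 fold changes of 1.16 ± 0.47, 0.44 ± 0.17, 0.11 ± 0.22, 0.49 ± 0.44 and 0.32 ± 0.33. Limma, edgeR and DESeq2 each called 0 of the 9 tested Frizzled genes. At an unadjusted limma p under 0.05, 5 were higher and 0 lower, beside 12.7% and 8.06% of all tested genes.

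Fzd10 was read at a low level in every young library and in no old library. Its recovered reads numbered 11, 13, 8 and 13 in young libraries 1 to 4, or 6.61, 12.3, 5.64 and 10.7 normalized counts, and 0 in each of the 4 old libraries. Over the groups this was 0.405 RPM in young. That is 12.7-fold above the limit of 0.0319 RPM that 3 reads over all old libraries would give. The ratio leaves out the counting error of the young reads and the spread between libraries, so it is not a lower bound. Its mean of 4.42 normalized counts kept it out of the main test, and the GENCODE annotation has no gene overlapping its exons. Tested with no filter it was called lower by limma (adjusted p = 0.0039) and by edgeR (adjusted p = 0.0223), where 0.939% and 1.1% of 22463 genes were called lower, 1.79% were called higher by each tool, and 2.72% and 2.88% were called in either direction. The edgeR run with no filter was added after the data were seen. At its low level Fzd10 made up 0.31 ± 0.12% of the per-kb Frizzled sum in young libraries.

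Of the co-receptors, Lrp6 was the more abundant per length, with 85.7 ± 4.33% of their summed per-kb level in young and 90.4 ± 0.73% in old. Lrp6 had 2717, 2451, 2024 and 2632 normalized counts in young libraries 1 to 4 and 2324, 2543, 2736 and 1990.4 in old libraries 1 to 4, and the ages overlapped (log2 fold change -0.035 ± 0.12, 95% interval -0.31 to 0.24). Lrp5, its paralog, had 226, 323, 357 and 238 normalized counts in young libraries 1 to 4 and 175, 202, 219 and 132 in old libraries 1 to 4. All old libraries were below all young ones, with a log2 fold change of -0.65 ± 0.21 (adjusted p = 0.109) that passed in 2 of 22 alternatives, quantile normalization and DESeq2.

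R-spondins amplify Wnt signals by binding LGR receptors and thereby removing the ubiquitin ligases that degrade Frizzleds. Lgr4 held 94.98 ± 3.52% of the per-kb level of these 7 genes in young and 88.4 ± 3.41% in old. Lgr4 had 1824, 1636, 1651 and 1814 normalized counts in young libraries 1 to 4 and 1423, 1575, 1569 and 1569 in old libraries 1 to 4, and the ages did not overlap, the closest being young library 2 and old library 2. The difference was small and did not pass (-0.17 ± 0.083, adjusted p = 0.267).

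Rspo1, a ligand of these receptors, had 18.6, 28.5, 5.64 and 5.78 normalized counts in young libraries 1 to 4 and 49.7, 64.6, 37.6 and 29.7 in old libraries 1 to 4. Its groups did not overlap, the lowest old library being at 29.7 and the highest young one at 28.5. The log2 fold change was 1.81 ± 0.54 (adjusted p = 0.0828), and it passed without young library 2 (2.21, adjusted p = 0.0422). Lgr5, a receptor and canonical target that marks stem cells in the gut, had 18.6, 32.3, 21.9 and 14.9 normalized counts in young libraries 1 to 4 and 49.7, 74.4, 24.7 and 44.6 in old libraries 1 to 4, and old library 3 fell within the young range (log2 fold change 1.06 ± 0.39, adjusted p = 0.154). Rspo3 had 4.80, 15.2, 4.23 and 6.61 normalized counts in young libraries 1 to 4 and 7.51, 19.6, 7.51 and 8.60 in old libraries 1 to 4, below the limit for testing, and overlapped. Lgr6 was at 0.24 ± 0.69, and Rspo2 and Rspo4 were at or near 0 in most libraries. Limma, edgeR and DESeq2 each called 0 of the 4 tested genes of this group. At an unadjusted limma p under 0.05, 2 were higher and 0 lower, beside 12.7% and 8.06% of all tested genes.

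Secreted Frizzled-related proteins bind Wnt ligands outside the cell, and 1 of the 4, Sfrp4, rose. It went from 205, 540.4, 176 and 234 normalized counts in young libraries 1 to 4 to 1204, 797, 1056 and 1725 in old libraries 1 to 4. Young library 2 was the highest of the young and still below old library 2, the lowest of the old. The change was 4.41-fold (log2 fold change 2.14 ± 0.34, limma adjusted p = 0.00729), with 289 ± 169 in young and 1196 ± 391 in old (SD, n = 4). It kept the call in 21 of 22 alternatives and without each library in turn; with the marker covariate it was at 1.51 (95% interval 0.37 to 2.64, adjusted p = 0.383).

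Sfrp1 had 118, 164, 106 and 111 normalized counts in young libraries 1 to 4 and 231, 384, 161 and 279 in old libraries 1 to 4. Old library 3 lay just below young library 2, and the other old libraries lay above all young ones. The log2 fold change of 1.03 ± 0.26 did not pass (adjusted p = 0.0517); it passed in 9 of 22 alternatives, among them without old library 3 (1.24) and without young library 2, and with the marker covariate it was at 0.15.

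Sfrp5 was the most abundant of the family per length, 255 in young and 501 in old normalized counts per kb. It had 363, 793, 396 and 385 normalized counts in young libraries 1 to 4 and 1101, 1213, 393 and 1098 in old libraries 1 to 4, so that young library 2 and old library 3 each stood apart from the other libraries of their age. The log2 fold change was 0.93 ± 0.37 (adjusted p = 0.182), and without old library 3 it was called higher, while with the marker covariate it was -0.38. Sfrp2 had 89.5, 195, 36.0 and 56.2 normalized counts in young libraries 1 to 4 and 61.0, 280.3, 52.6 and 245 in old libraries 1 to 4, overlapped and had a log2 fold change of 0.66 ± 0.65, which was -1.69 with the marker covariate.

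Dickkopf proteins antagonize Wnt at the LRP co-receptors, with Dkk3 a divergent member for which this has been less clear. Dkk3 had 42.6, 133, 48.0 and 54.5 normalized counts in young libraries 1 to 4 and 232, 622, 69.8 and 277 in old libraries 1 to 4. Old library 3 lay below young library 2, and old library 2 stood highest (log2 fold change 1.87 ± 0.59, adjusted p = 0.0995). Without old library 3 the change was 2.44 and passed (adjusted p = 0.0163), and with the marker covariate it was -0.23. Dkk3 passed in 4 of 22 alternatives, DESeq2 among them. Dkk2 had 63.7, 34.2, 29.6 and 47.1 normalized counts in young libraries 1 to 4 and 98.5, 111, 36.5 and 106 in old libraries 1 to 4, with old library 3 again in the young range (0.93 ± 0.39, adjusted p = 0.211; without old library 3 it was 1.31 and passed, adjusted p = 0.0427, and with the marker covariate it was 0.011). Dkk1 and Dkk4 had means under 10.

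In all, without old library 3 the higher genes numbered 8, with Dkk2, Dkk3, Fzd7, Sfrp1, Sfrp5 and Wnt11 beside Wls and Sfrp4. Without young library 2 they numbered 5, with Rspo1, Sfrp1 and Wnt11. The number of all tested genes called higher also changed when a library was left out, over the range given in the closing section. No background share for each run stands beside these counts, so they are not read as a result about the core genes. The part of the connective tissue markers in the age differences was not tested, and the covariate values given cannot separate it from age.

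**Figure D4:**
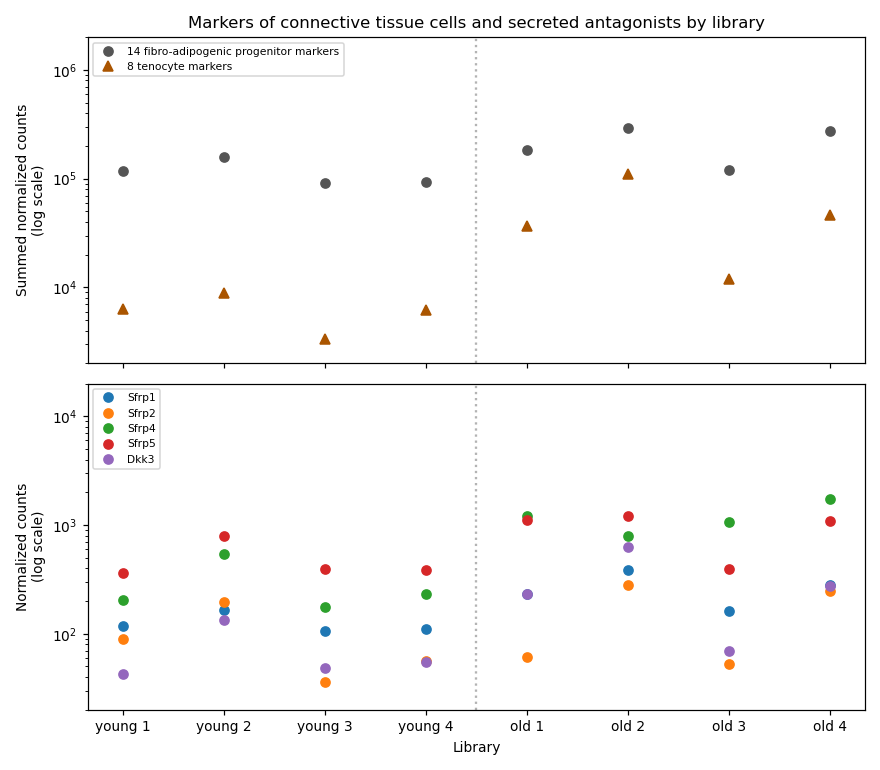
Summed normalized counts of 14 fibro-adipogenic progenitor and 8 tenocyte markers (upper panel) and normalized counts of Sfrp1, Sfrp2, Sfrp4, Sfrp5 and Dkk3 (lower panel) in each library, on log scales. Among young libraries library 2 is highest for both marker sums and for all 5 genes, and among old libraries library 3 is lowest for both sums and for all of the genes but Sfrp4.

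The core transducers of the canonical branch showed small differences. Ctnnb1, encoding beta-catenin, had the highest level of all 55 genes, 2057 in young and 2069 in old normalized counts per kb, and 10252, 9703, 12798 and 9965 normalized counts in young libraries 1 to 4 and 10685, 11515, 11448 and 9313 in old libraries 1 to 4. The ages overlapped, with a log2 fold change of 0.012 ± 0.11 and a 95% interval of -0.23 to 0.26. Part of its exons, 759 bases, is overlapped on the other strand by Ulk4, whose mean was 71.9 in young libraries and 56.7 in the old ones. Axin1, the scaffold of the destruction complex, was at 1791 ± 98.2 in young and 1694 ± 156 in old (log2 fold change -0.083 ± 0.092, 95% interval -0.29 to 0.12).

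Axin2, which is both a scaffold and a widely used readout of canonical signalling, was low, with 18.0, 20.9, 10.6 and 33.9 normalized counts in young libraries 1 to 4 and 13.1, 15.5, 26.8 and 20.3 in old libraries 1 to 4. The ages overlapped, and at this level the interval of its log2 fold change was wide, -1.02 to 0.88. Of the TCF/LEF factors, Tcf7l1, mostly a repressor, led per length with 212 in young and 204 in old normalized counts per kb (log2 fold change -0.053 ± 0.11), followed by Tcf7l2 (0.16 ± 0.12). Tcf7 had 116, 218, 128 and 140.5 normalized counts in young libraries 1 to 4 and 114, 111, 117 and 171 in old libraries 1 to 4 (-0.21 ± 0.24, 95% interval -0.74 to 0.32). Lef1 was below the limit for testing, with 4.20, 6.65, 22.6 and 0.826 normalized counts in young libraries 1 to 4 and 3.75, 1.63, 7.51 and 0.782 in old libraries 1 to 4, and young library 3 had the highest value. Limma, edgeR and DESeq2 called 0 of these 6 tested genes, with 0 at an unadjusted p under 0.05. At that unadjusted limma p, 12.7% of all tested genes were higher and 8.06% lower.

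The rest of the pathway was read from lists of 127 further genes, of which 119 were tested, 4 rose and 7 fell. That is 9.24% called, beside 5.22% of all tested genes, and the median log2 fold change was -0.025. Those that fell included 3 of the 28 genes around the destruction complex and Dishevelled, while 0 of these rose. Of all tested genes 1.88% fell and 3.34% rose. Frat1 and Frat2, which bind GSK3 and relieve its action on beta-catenin, both fell. Frat1 had 49.2, 47.5, 47.3 and 46.3 normalized counts in young libraries 1 to 4 and 14.1, 8.99, 16.1 and 18.0 in old libraries 1 to 4, so that the highest old library, at 18.0, was far below the lowest young one, at 46.3 (log2 fold change -1.71 ± 0.31, limma adjusted p = 0.0136). Frat2 had 913, 726, 762 and 846 normalized counts in young libraries 1 to 4 and 560.3, 552, 457 and 589 in old libraries 1 to 4 (-0.59 ± 0.12, adjusted p = 0.022), and its groups did not overlap either.

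Dvl3, a Dishevelled protein that passes the signal on from Frizzled receptors, had 989, 1004, 847 and 942 normalized counts in young libraries 1 to 4 and 643, 692, 705 and 696 in old libraries 1 to 4. Every old library was below every young one, and it fell (-0.46 ± 0.094, adjusted p = 0.022). Its paralogs Dvl1 and Dvl2, named after their values were seen, were at 0.030 ± 0.082 and 0.19 ± 0.14, and the difference between the paralogs was not tested. Daam1, a formin that links Dishevelled to the cytoskeleton in planar cell polarity, fell from 2901 ± 369 to 2035 ± 134 (-0.50 ± 0.10, adjusted p = 0.0221). Tbl1xr1, a subunit of corepressor complexes that also binds beta-catenin, fell (-0.51 ± 0.11, adjusted p = 0.0258), and so did the glypican gene Gpc4 (-0.35 ± 0.087, adjusted p = 0.0445).

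Tpbg, a membrane protein known in zebrafish as an inhibitor of canonical Wnt signalling, rose from 387 ± 81.6 to 689 ± 122 (0.84 ± 0.18, adjusted p = 0.0267). Of 24 tested genes commonly listed as beta-catenin targets, 3 rose and 1 fell, 16.7% of the list beside 3.34% higher and 1.88% lower among all tested genes. Ccn5, a matricellular protein also known as WISP2, rose with 309, 286, 164 and 145 normalized counts in young libraries 1 to 4 and 633, 592, 611 and 833 in old libraries 1 to 4 (1.62 ± 0.25, adjusted p = 0.00656). Bmp4 rose (0.49 ± 0.11) and the transcription factor Twist1 rose from a low level, 15.7 ± 11.3 in young and 57.8 ± 22.9 in old (1.94 ± 0.48), while Sox9 fell (-0.35 ± 0.084), and these have many regulators besides Wnt. The feedback inhibitors Nkd1, Znrf3 and Notum did not pass (1.20 ± 0.55, -0.23 ± 0.12 and -1.10 ± 0.48), nor did Ccnd1 (-0.99 ± 0.31), Ccn4 (0.23 ± 0.13), Myc (-0.093 ± 0.13) or Sp5, and Rnf43 was below the limit for testing. Notum, at 20.5 ± 0.976 in young and 10.4 ± 6.18 in old, was lower in every old library than in any young one.

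**Figure D5:**
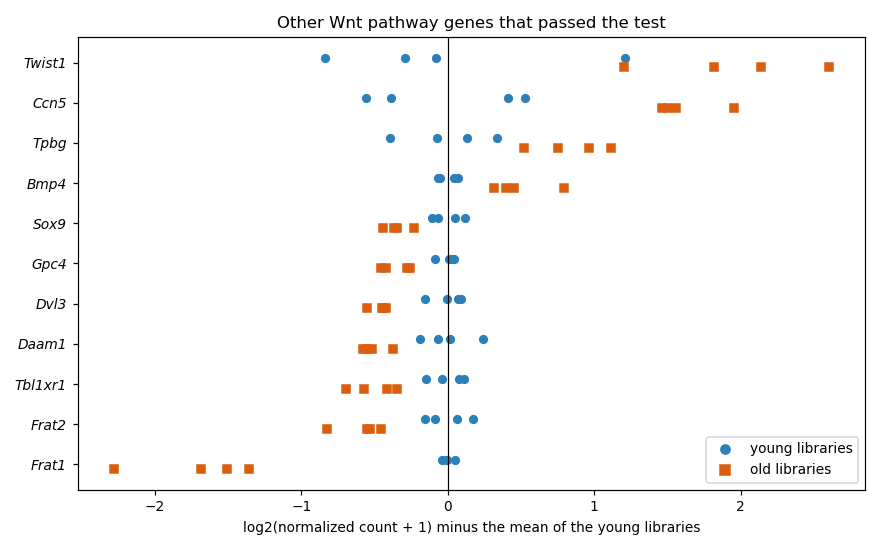
Values of the 11 further pathway genes that passed the test, as log2(normalized count + 1) minus the mean of the young libraries (x axis), with 1 circle per young and 1 square per old library. Frat1, Frat2, Tbl1xr1, Daam1, Dvl3, Gpc4 and Sox9 lie lower in all old libraries, and Twist1 is the one of the 11 whose ages overlap.

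Of these 11 genes Ccn5 kept its call in 21 of 22 alternatives, Frat1 in 20 of 21 and Frat2 in 18 of 22. Dvl3, Daam1 and Tbl1xr1 kept it in 15 of 22 and Tpbg and Bmp4 in 14. Sox9 kept it in 9 of 22, Gpc4 in 8 of 22 and Twist1 in 8 of 21. The count of lower genes went from 7 to 1 without young library 1 or young library 4, to 4 without young library 2 and to 2 without old library 1, 2 or 4; that of higher genes went from 4 to 1 without young library 1, old library 1 or old library 4, to 2 without young library 4 or old library 2, and to 6 without old library 3. The counts over all tested genes also changed when a library was left out, over the ranges given in the closing section. No background share for each run stands beside the pathway counts, so they are not read as a result about these genes. With the marker covariate none passed, and Frat1, Frat2 and Dvl3 were at -1.50, -0.73 and -0.54 (adjusted p = 0.407, 0.282 and 0.325). The genes called higher had smaller changes in that model, Ccn5 1.12, Tpbg 0.56, Twist1 0.46 and Bmp4 0.30, and Daam1, Tbl1xr1, Sox9 and Gpc4 were at -0.40, -0.44, -0.33 and -0.31.

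Among the 10 tested core genes whose ages did not overlap, 6 were higher in old (Wls, Sfrp4, Wnt9a, Wnt5b, Fzd1 and Rspo1) and 4 lower (Wnt4, Porcn, Lrp5 and Lgr4). Over all tested genes 7.99% were higher and 5.46% lower in every old library than in any young one.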

How the data were processed

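RNA-seq of 8 libraries of sorted mouse muscle stem cells was analysed from 1 deposited table of size-factor normalized counts (unit: signal), which the authors made from reads; per the submitters' processing notes, the tools included STAR, Subread 1.5.1, featureCounts, DESeq2 and Trim Galore 0.4.2, and both GRCm39 and mm10 are listed without their roles. Strandedness is not given in the sources used here. Low values were whole multiples of 1 step per library, which recovered whole reads for at least 99.97% of values above 0 (tolerance 0.01), 19.0 to 34.7 M (megareads) per library. Depth was 27.8 ± 5.69 M in young and 23.5 ± 3.51 M in old libraries (SD, n = 4, two-sided exact permutation p = 0.286 over 70 arrangements).

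Genes averaging 10 normalized counts or more were tested with limma 3.58.1 (R 4.3.3, trend) on log2(normalized count + 1), age alone, with Benjamini-Hochberg adjustment over all 14822 tested genes at 0.05. Fold changes are on that scale, which understates low genes, and the ± after them is limma's standard error. As alternatives, edgeR 4.0.16 (quasi-likelihood, calling 409 genes higher and 298 lower) and DESeq2 1.42.0 were run on recovered reads, with other pseudocounts, filters, scalings, weights, a replicate block, a marker covariate and each library left out. edgeR with no filter was added after seeing the data. All 55 genes were accounted for by role, with values in every library for those called, those whose ages did not overlap and a fixed set including Wnt4, Fzd4, Fzd7, Axin2 and Ctnnb1; values of Wnt11, Fzd8, Sfrp5 and Fzd10 were added after they were seen. Further pathway genes were named if called, with Nkd1, Znrf3, Rnf43, Notum, Sp5, Ccnd1, Myc and Ccn4 whatever their result. The members and lists were chosen with earlier results of these data known. The limma procedure was tested on simulated data. Exon lengths and overlaps came from GENCODE M21. Floors cover counting error only; the 95% intervals of fold changes are limma's, from the spread between libraries.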

Additional observations from a re-analysis of the deposited data

Results flagged for a closer look

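Over 74 groups of 4 libraries, 10 held a library standing far from the other 3. For independent normal values the rate would be about 1 in 20. The values were unlogged counts of genes from the same libraries, so the 10 cannot be set against that rate. Young library 2 was high for Sfrp4 (540.4 normalized counts, the others 176 to 234), Sfrp5 (793, the others 363 to 396), Dkk3 (133, the others 42.6 to 54.5) and Wnt11 (245, the others 137 to 154). Its fibro-adipogenic and tenocyte marker sums were also the highest of the young libraries, 159758 and 8907. Old library 3 was low for Sfrp5 (393, the others 1098 to 1213) and Dkk2 (36.5, the others 98.5 to 111), and its marker sums, 120250 and 11978, were the lowest of the old libraries. The part of those cells in these values was not tested.

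Old library 4 was high for Wnt9a (271, the others 114 to 138) and Tcf7 (171, the others 111 to 117). Old library 1 was low for Lgr4 (1423, the others 1569 to 1575). Young library 3 was low for Fzd9 (33.9, the others 74.5 to 79.8).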

How the results depend on the processing

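The 2 core genes called higher became 4 with array weights, 6 with DESeq2, 7 without young and old library 3, 4 by edgeR with no filter and 0 with the marker covariate; with 1 library left out they were 2 to 8. The 0 lower became 1 with no filter, 1 by quantile normalization, 3 by DESeq2 and 1 by edgeR with no filter, and 0 to 1 with a library left out. Of the further pathway genes, the 4 higher became 2 by quantile normalization, 1 by limma without trend, 0 with the covariate, 7 by DESeq2 and 2 by edgeR with no filter (1 to 6 with a library left out). The 7 lower became 3 without trend, 0 with the covariate and 12 by DESeq2 (1 to 8). Across the table, all genes called higher in old numbered 495 and became 268 without trend, 8 with the covariate and 768 by DESeq2 (213 to 523); all genes called lower in old numbered 278, and became 134, 5 and 601 (117 to 316). The cause was not tested. Where no count over all tested genes is given for a run, as with array weights, its counts are not read as a result about the Wnt pathway genes.

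Among the tested core genes and the named pathway genes, the log2 fold change changed sign with the marker covariate for Wnt2b (-0.082), Wnt5a (-0.54), Wnt10a (-0.18), Fzd2 (-0.18), Fzd4 (0.35), Fzd7 (-0.22), Fzd9 (-0.15), Lrp6 (0.049), Sfrp2 (-1.69), Sfrp5 (-0.38), Dkk3 (-0.23), Axin2 (0.12), Dvl1 (-0.11) and Dvl2 (-0.012). Quantile normalization did so for Wnt2b (-0.12), Fzd5 (-0.066) and Lgr6 (-0.11), array weights for Wnt2b (-0.044), and the omission of young and old library 3 for Wnt2b (-0.56). It changed by edgeR for Wnt2b (-0.19), Lgr6 (-0.15), Ctnnb1 (-0.021), Sp5 (0.072) and, as log2 fold change of Dvl1, -0.00027, by edgeR with no filter for Wnt2b (-0.19), Lgr6 (-0.15), Ctnnb1 (-0.021) and Sp5 (0.075), and by DESeq2 for Wnt2b (-0.20), Lgr6 (-0.17), Ctnnb1 (-0.030), Sp5 (0.072) and Dvl1 (-0.0085). With a library left out, the genes whose sign changed ranged over -0.46 to 0.42 (Wnt2b), -0.18 to 0.039 (Fzd4), -0.090 to 0.21 (Fzd5), -0.13 to 0.051 (Lrp6), -0.15 to 0.84 (Lgr6), -0.031 to 0.10 (Ctnnb1), -0.34 to 0.19 (Axin2), -0.11 to 0.013 (Tcf7l1), -1.13 to 0.40 (Sp5), -0.17 to 0.0051 (Myc) and -0.0026 to 0.072 (Dvl1). Quantile normalization moved the median of all genes from 0.045 to -0.031.

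Libraries of the 2 ages share only a replicate number: their deviations correlated at 0.19, 0.072, 0.30 and -0.042, and the own number was best for numbers 1 and 3 alone. With the replicate block 6 core genes were higher (Wls, Sfrp4, Sfrp1, Dkk3, Rspo1 and Wnt11) and 1 lower (Wnt4), and 7 further pathway genes higher. The share of all tested genes called in that model is not given here. Its counts are therefore not read as a result about the Wnt pathway genes. Genes under 10 normalized counts, 18 of 55, have too few reads for small differences.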
